A study of Ovis aries with 15 samples.

Results

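The response of the fetal kidney cortex to ketamine without hypoxia was read from 7 of the 15 arrays of the series: 4 from fetuses given ketamine under normoxia and 3 from fetuses given vehicle under normoxia, chosen by the group named in each array's title. All were fetal sheep, chronically catheterised, at about 125 d of gestation and assigned to their groups at random at surgery. The normoxia ketamine group received ketamine at 3 mg/kg intravenously, 10 min before a 30 min period at normal maternal oxygen. The normoxia vehicle group received saline in its place, and cortex was collected from both 24 h after the period began. The other 8 arrays, 4 from hypoxia with ketamine and 4 from hypoxia with vehicle, entered the fit only to estimate the spread and to test whether ketamine acted differently with and without hypoxia. Every fetus in both normoxia groups had undergone the same catheter surgery, so neither group was an unoperated one, and a single dose and a single time were studied.

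Ketamine is a dissociative anaesthetic that blocks the pore of the N-methyl-D-aspartate (NMDA) receptor, a glutamate-gated ion channel. Outside the brain, glutamate receptors are known from several organs, the kidney among them, and ketamine is also described as damping inflammatory gene expression. At this stage of gestation the fetal kidney cortex is still maturing, with vessels, nephrons and stroma growing under the control of bone morphogenetic proteins, platelet-derived growth factors and related signals.

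Each array carried 60-base probes for ovine transcripts, most of them without a gene name. Probes behind several of the results are printed here 5′ to 3′ as the scanner files give them. CHRD encodes chordin, a secreted antagonist of bone morphogenetic proteins, and had a pair of probes shifted by 1 base. SHMT2, the mitochondrial serine hydroxymethyltransferase of one-carbon metabolism, had a similar pair. Capitals mark the run of 59 bases that the probes of each pair share.
CHRD A_70_P026676: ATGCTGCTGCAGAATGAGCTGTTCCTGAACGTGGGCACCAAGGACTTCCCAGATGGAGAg
CHRD A_70_P026677: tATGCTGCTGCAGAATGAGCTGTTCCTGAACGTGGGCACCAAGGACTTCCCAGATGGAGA
SHMT2 A_70_P030282: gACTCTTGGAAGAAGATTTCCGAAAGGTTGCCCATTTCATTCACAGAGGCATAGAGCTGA
SHMT2 A_70_P030281: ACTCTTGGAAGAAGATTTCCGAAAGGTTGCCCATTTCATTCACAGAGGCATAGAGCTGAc

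Further probes are shown for SLC25A20, the mitochondrial carrier that exchanges carnitine for acylcarnitine, for PDGFB, the B chain of platelet-derived growth factor, by its brightest probe (A_70_P017062) and by a probe from another stretch of the transcript, for the interferon-induced ubiquitin-like gene ISG15, and for the unnamed probe with the largest decrease among those whose groups did not overlap.
SLC25A20 A_70_P029431: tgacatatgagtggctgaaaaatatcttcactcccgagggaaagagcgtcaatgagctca
PDGFB A_70_P017062: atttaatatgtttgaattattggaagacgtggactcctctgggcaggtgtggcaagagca
PDGFB A_70_P012556: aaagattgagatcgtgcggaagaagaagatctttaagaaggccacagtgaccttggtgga
ISG15 A_70_P030156: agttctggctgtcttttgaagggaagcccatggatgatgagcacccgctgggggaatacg
A_70_P024026: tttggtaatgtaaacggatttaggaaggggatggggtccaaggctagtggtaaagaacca

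The pregnancy-associated glycoproteins (PAG genes) are a large family of aspartic-proteinase-like proteins made by the ruminant trophoblast. Their probes are shown because the family is closely related in sequence: capitals in the PAG10 and PAG6 probes mark bases that differ from the PAG11 probe where they align.
PAG11 A_70_P050941: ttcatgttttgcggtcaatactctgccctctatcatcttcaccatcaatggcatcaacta
PAG10 A_70_P012601: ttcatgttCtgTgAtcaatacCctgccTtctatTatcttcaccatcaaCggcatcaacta
PAG6 A_70_P030092: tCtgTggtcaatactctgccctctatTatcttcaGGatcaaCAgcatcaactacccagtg
PAG3 A_70_P030061: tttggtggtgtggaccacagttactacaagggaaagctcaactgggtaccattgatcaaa
The PAG10 probe matched the PAG11 probe at 53 of 60 bases (88.3%), and the PAG6 probe matched it at 46 of the 53 bases that aligned (86.8%). A transcript of one member could therefore contribute to the signal of another, and the PAG readings are not independent.

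Ketamine without hypoxia was followed by few and mostly small differences in the cortex at 24 h. All values below are log2 signal relative to the 75th percentile of the same array, differences are ketamine minus vehicle with their standard error, and a gene is said to have risen or fallen only where limma's unadjusted p was at most 0.05, the study's own threshold. Of 12927 probes tested, 350 passed (2.71%), 123 of them higher with ketamine (0.951%) and 227 lower (1.76%). A threshold of 0.05 passes about 5% of probes where nothing differs, so this share is below that level. The fit shares its estimate of spread with the hypoxic arrays, which varied more. None passed after Benjamini-Hochberg adjustment over all probes in limma, where the lowest adjusted p was 1.0. When the 7 normoxic arrays were fitted alone with limma, 673 passed unadjusted (5.21%), 481 of them lower (3.72%), and 2 passed after adjustment, the unnamed probes A_70_P024026 and A_70_P003931 (both adjusted p = 0.0352). A_70_P003931 was not well above background on any of the 7 arrays, so its difference is between readings at background and no level is read from it. The majority of lower probes depended on scaling: quantile normalization gave 179 higher and 171 lower, and normexp background correction with quantile normalization gave 173 of each, so the share of called probes that were higher was 35.1% under the 75th percentile and 51.1% under quantile normalization. Under hypoxia, in the same fit, 785 probes passed for ketamine against vehicle (6.07%), 451 of them lower (3.49%), and of the named genes 49 fell (6.02%).

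The groups did not overlap, every ketamine array lying on 1 side of every vehicle array, at 920 probes (7.12%), with ketamine higher at 326 (2.52%) and lower at 594 (4.6%), and at 61 named genes (7.49%). Of all probes, 216 (1.67%) both passed the threshold and did not overlap. The median absolute difference was 0.134 log2 units over all probes, and 0.959% of probes differed by more than 1 log2 unit. Signal at the 75th percentile lay between 1087 and 1425 on the 7 arrays, and 81.0% to 84.0% of probes were well above background on each. The median within-group SD was 0.206 for ketamine and 0.176 for vehicle arrays in normoxia, and 0.238 and 0.290 in hypoxia. With 4 and 3 arrays the median standard error of a difference was 0.199 log2 units, which limits what could be resolved. In the fit of the 7 normoxic arrays alone that standard error was 0.157. As markers of kidney, the water channels AQP1 and AQP2 and the phosphate transporter SLC34A1 were well above background on every one of the 7. Of the 18 tubular transport and nephron genes with a probe, 14 to 18 were well above background on a ketamine array. On a vehicle array 17 or 18 were. Ketamine arrays 1 and 2 stood apart from the other normoxic arrays in transcripts of the placenta, described below, and without them 361 probes passed unadjusted in limma, 19.9% of them higher. The arrays came from 2 slides, each holding both groups, and the values within each slide are given after the calls.

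Among the 814 genes with a name and a tested probe, 24 passed (2.95%), close to the share over all probes. Of these 15 were higher with ketamine (1.84%) and 9 lower (1.11%). Those that fell were SIRT4, TNFRSF11B, CHRD, BARX2, CDKN1B, MMP2, PDGFB, TFAP2A and CAPN1, and those that rose included 3 PAG genes, SLC25A20, CFTR, TF and SHMT2. In bulk cortex, fewer cells of a type and less RNA per cell cannot be told apart for any of these genes.

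CHRD had the lowest p of the named genes. Its first probe read -6.50, -6.01, -6.54 and -7.14 in the 4 normoxia ketamine arrays, against -5.87, -5.18 and -5.90 in the 3 normoxia vehicle arrays. All 4 ketamine arrays lay below all 3 vehicle arrays. The mean was -6.55 ± 0.46 with ketamine and -5.65 ± 0.41 with vehicle (SD, n = 4 and 3), a difference of -0.90 ± 0.24 (limma unadjusted p = 0.00204, adjusted p = 1.0), or a signal 1.87-fold lower. The transcript is dim here: 3 of 4 ketamine and 3 of 3 vehicle arrays were well above background. The second CHRD probe, shifted by 1 base in the sequences above, read -5.84, -6.55, -6.33 and -7.57 with ketamine, against -6.04, -5.41 and -6.27 with vehicle. Those groups overlapped, and its difference was -0.67 ± 0.33 (limma unadjusted p = 0.0622). On slide 1 alone the first probe differed by -0.73 (limma unadjusted p = 0.0531), and normexp background correction together with quantile normalization gave a difference of -0.22 (unadjusted p = 0.022), where quantile normalization alone gave -0.80.

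PDGFB, a mitogen for pericytes, mesangial cells and smooth muscle, also fell. Its brightest probe read -3.86, -3.90, -3.89 and -3.80 with ketamine, against -3.46, -3.21 and -3.52 with vehicle. The ketamine arrays lay close together and all below vehicle. The difference was -0.47 ± 0.14 (limma unadjusted p = 0.00595), or 1.38-fold lower. The other PDGFB probes did not pass: the probe that shares 59 of its bases read -0.14 ± 0.16 (limma unadjusted p = 0.381), and A_70_P012556, printed above, read -0.40 ± 0.34 (unadjusted p = 0.254). On slide 2 alone the brightest probe differed by -0.33 (limma unadjusted p = 0.265), and in the authors' deposited value table by -0.27 (unadjusted p = 0.0501).

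SLC25A20, which carries acylcarnitines into mitochondria for fatty acid oxidation, had the largest rise among named genes outside the PAG family. It read -2.20, -1.61, -1.76 and -2.30 with ketamine, against -2.92, -3.30 and -2.37 with vehicle. Every ketamine array was above every vehicle array, with vehicle array 3 closest to them. The difference was 0.90 ± 0.29 (limma unadjusted p = 0.00913), a signal 1.86-fold higher. It was 1.20 on slide 1 and 0.34 on slide 2 (limma unadjusted p = 0.395), and without vehicle array 2 it was 0.68 (unadjusted p = 0.0562).

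**Figure D1:**
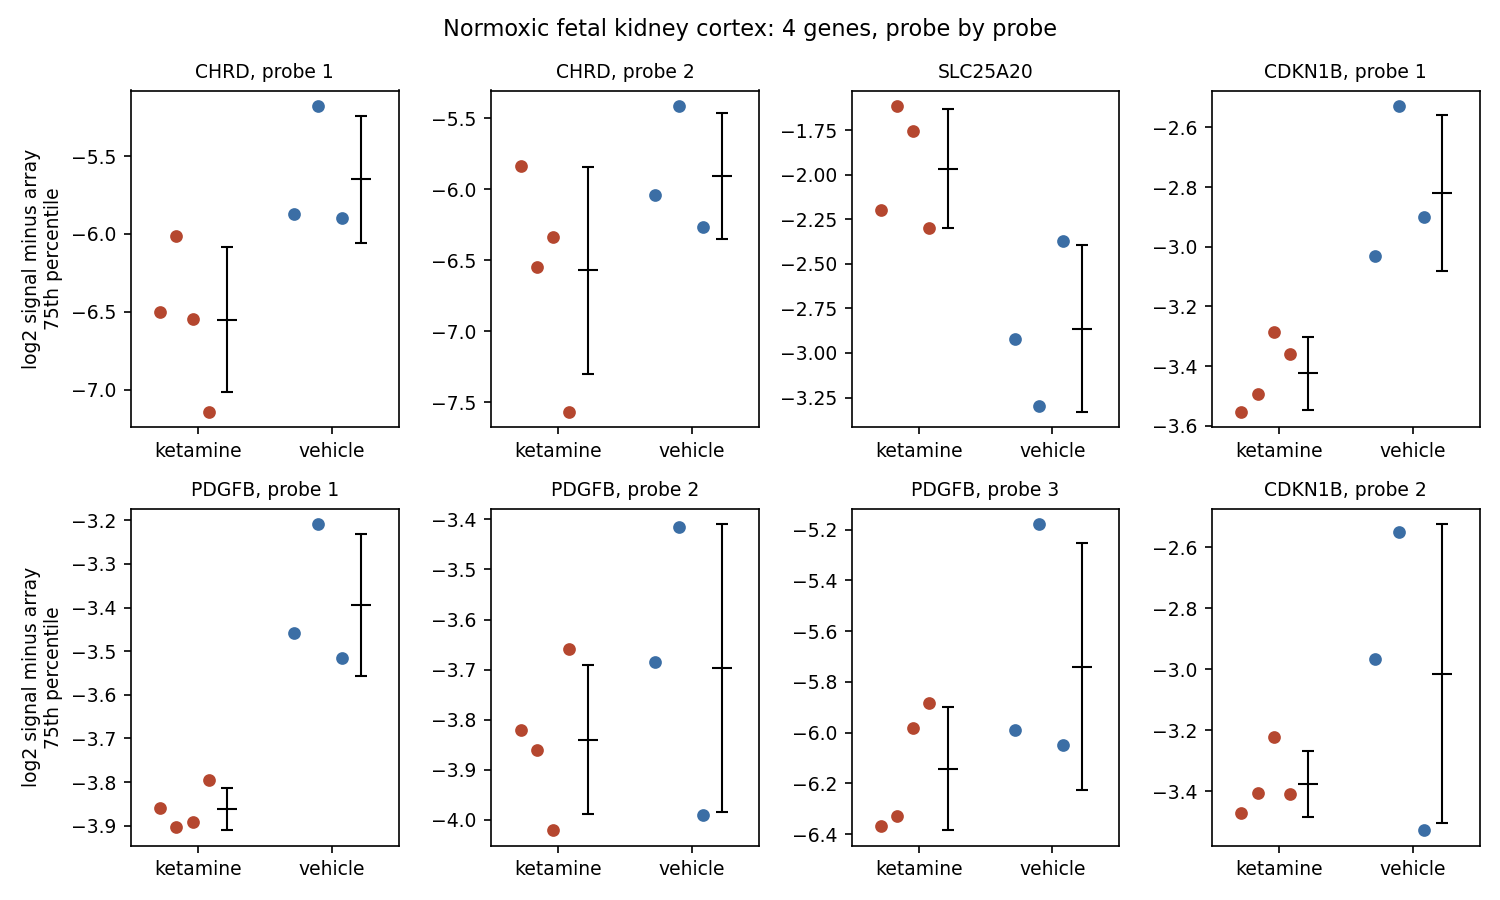
Log2 signal relative to the array's 75th percentile (vertical axis) for named genes on each normoxic array, with normoxia ketamine left of normoxia vehicle; points are arrays and bars the mean ± SD of the 4 and 3 arrays. For the first CHRD and PDGFB probes the 4 ketamine points lie below the 3 vehicle points, and for SLC25A20 they lie above.

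The other genes that fell had smaller or less even differences. SIRT4, a mitochondrial sirtuin, read -6.47, -6.09, -6.23 and -6.76 with ketamine, against -5.73, -6.09 and -3.83 with vehicle. Ketamine array 2 and vehicle array 2 were level to the second decimal and vehicle array 3 stood far above the rest. The difference was -1.17 ± 0.42 (limma unadjusted p = 0.0149), and -0.48 without vehicle array 3 (unadjusted p = 0.0964). CDKN1B, the cyclin-dependent kinase inhibitor p27, read -3.55, -3.49, -3.29 and -3.36 with ketamine, against -3.03, -2.53 and -2.90 with vehicle. The groups lay apart, with a difference of -0.60 ± 0.23 (limma unadjusted p = 0.0202). The CDKN1B probe that shares 59 bases with it gave -0.36 ± 0.24 (limma unadjusted p = 0.154), and without vehicle array 2 the first probe gave -0.46 (unadjusted p = 0.098).

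Smaller decreases were seen in 3 more genes. TFAP2A, a transcription factor of neural crest and epithelia, differed by -0.44 ± 0.19 (limma unadjusted p = 0.0332). CAPN1, the catalytic subunit of mu-calpain, differed by -0.43 ± 0.19 (unadjusted p = 0.0411), and another CAPN1 probe by the same amount (unadjusted p = 0.0435). MMP2, a gelatinase of stroma and vessel walls, differed by -0.48 ± 0.21 (limma unadjusted p = 0.0385), with readings of -2.27 to -1.54 under ketamine and -1.55 to -1.25 under vehicle, which overlapped at 1 array. Its other 2 probes gave -0.39 and -0.30 and did not pass (unadjusted p = 0.0808 and 0.147).

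Among the genes that rose, SHMT2 was read by a pair of overlapping probes that both passed. It read -2.47, -2.87, -2.86 and -3.09 with ketamine, against -3.30, -3.15 and -3.52 with vehicle, with no overlap. The difference was 0.50 ± 0.19 (limma unadjusted p = 0.0177) or 1.42-fold, and the second probe gave 0.46 ± 0.19 (unadjusted p = 0.0287). Without vehicle array 3 it was 0.40 (limma unadjusted p = 0.0791). Its 59 shared bases mean that the pair is close to a repeated reading of 1 transcript.

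COX15, needed for assembly of cytochrome c oxidase, rose by 0.31 ± 0.13 (limma unadjusted p = 0.0274), with 0.46 on slide 1 and 0.06 on slide 2. GATD3, a mitochondrial protein, and PDIA5, a protein disulfide isomerase of the endoplasmic reticulum, both rose by 0.33 ± 0.14 (unadjusted p = 0.0338 and 0.0384), and the PDIA5 value was 0.20 without ketamine array 3 (unadjusted p = 0.128). PRKAR1A, a regulatory subunit of protein kinase A, rose by 0.28 ± 0.12 (limma unadjusted p = 0.0396), but by 0.22 under quantile normalization (unadjusted p = 0.11). CFTR, the chloride channel, read 0.76 ± 0.28 higher (limma unadjusted p = 0.0175), yet only 2 of 4 ketamine and 0 of 3 vehicle arrays were well above background. With vehicle set no lower than the detection limit, the ketamine mean was 1.03-fold higher. That mean includes ketamine readings not well above background, so the fold is not a bound. A second CFTR probe was too dim to be tested and read lower with ketamine, from -8.90 to -8.31, against -7.58 to -5.91 with vehicle.

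TF, which encodes transferrin, the iron carrier of plasma, read 4.23, 4.36, 4.44 and 3.63 with ketamine, against 3.24, 3.75 and 3.55 with vehicle. Ketamine array 4 lay inside the vehicle range and the other ketamine arrays above it. The difference was 0.65 ± 0.28 (limma unadjusted p = 0.0379). Quantile normalization gave 0.58 (unadjusted p = 0.0554). TNNC2, the calcium-binding troponin of fast skeletal muscle, rose by 0.38 ± 0.17 (limma unadjusted p = 0.0372), but the difference within slide 2 was 0.00. Its other probe gave 0.27 ± 0.22 (unadjusted p = 0.242).

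TF and TNNC2 come from lists of other tissues. Of 7 measured liver genes, only TF rose and 6 of 7 were higher, with a median difference of 0.38 and a range of -0.05 to 1.53. Their summed signal was 18.0 to 29.9 times the 75th percentile on ketamine arrays and 12.4 to 15.9 times on vehicle arrays. TF was the brightest of the 7 and made up most of that sum, so the sum mainly repeats the TF reading. Of 7 measured muscle and adipose genes only TNNC2 rose, with a median of 0.01 and summed signals of 0.211 to 0.346 with ketamine and 0.228 to 0.26 with vehicle. The part of liver RNA or muscle RNA in these differences was not tested.

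Overlapping groups were also found in 4 genes that are named after their values were seen. TNFRSF11B, the soluble decoy receptor osteoprotegerin, and BARX2, a homeobox factor, differed by -1.14 ± 0.42 and -0.83 ± 0.34 (limma unadjusted p = 0.0168 and 0.031). HEXA, a lysosomal glycosidase that trims sugar chains, rose by 0.47 ± 0.20 (limma unadjusted p = 0.0357). SLC66A2 rose by 0.50 ± 0.21 (limma unadjusted p = 0.0364).

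Each array was also left out in turn. CHRD and PDGFB kept theirs in all 7 refits. Without ketamine array 1 the calls of SHMT2, COX15, TFAP2A, TF and PRKAR1A were lost, and without ketamine array 2 those of CFTR, COX15, GATD3, MMP2, TFAP2A, CAPN1, TNNC2, TF and PRKAR1A. Without ketamine array 3 the calls of PDIA5, GATD3, MMP2, CAPN1, TNNC2 and TF were lost, and without ketamine array 4 that of CAPN1. Without vehicle array 1 the calls of CFTR, COX15, GATD3, MMP2, TFAP2A, CAPN1, TNNC2, TF and PDIA5 were lost. Without vehicle array 2 those of SLC25A20, CDKN1B, COX15, GATD3, MMP2, CAPN1, TNNC2, PDIA5 and PRKAR1A were lost, and without vehicle array 3 those of SIRT4, SHMT2, CFTR, TFAP2A, CAPN1, TF and PDIA5. The call of TNFRSF11B was lost without ketamine array 1 or vehicle array 3. BARX2 kept its call only without ketamine array 2 or vehicle array 2, and HEXA and SLC66A2 kept theirs only without ketamine array 4 or vehicle array 3. No direction turned in these refits.

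Slide 1 held ketamine arrays 1 and 2 with vehicle arrays 1 and 2, and slide 2 held ketamine arrays 3 and 4 with vehicle array 3, so the values within a slide rest on few arrays. SIRT4 differed by -0.37 on slide 1 (limma unadjusted p = 0.211) and by -2.67 on slide 2, the slide of its high vehicle array. CDKN1B differed by -0.74 on slide 1 and by -0.42 on slide 2 (unadjusted p = 0.321), and SHMT2 by 0.56 and 0.54, the second without passing (unadjusted p = 0.132). CDKN1B and SHMT2 thus passed on slide 1 alone, SIRT4 and CHRD on slide 2 alone.

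Among the other genes that fell, MMP2 differed by -0.58 on slide 1 and -0.30 on slide 2, TFAP2A by -0.45 and -0.49, CAPN1 by -0.50 and -0.31, and TNFRSF11B by -1.37 and -1.03, none of them passing on either slide, while BARX2 differed by -0.65 and -1.09 and passed on slide 2. Among those that rose, TF differed by 0.80 on slide 1 and 0.49 on slide 2, CFTR by 0.85 and 0.72, GATD3 by 0.44 and 0.18, PDIA5 by 0.20 and 0.45, PRKAR1A by 0.44 and 0.06, and HEXA by 0.63 and 0.23, none passing on either slide. COX15 passed on neither slide. TNNC2 and SLC66A2 passed on slide 1, at 0.61 and 0.72, and SLC66A2 was at 0.16 on slide 2. All of these genes kept their sign on both slides, and all kept their call with slide as a block.

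Unnamed probes made up 313 of the 350 that passed unadjusted. A_70_P024026, printed above, read -7.22, -6.88, -7.41 and -7.37 with ketamine, against -4.85 and -4.52 on vehicle arrays 2 and 3, its spot on vehicle array 1 being an outlier that the fit left out. No ketamine array was well above background there. The measured difference was -2.54 ± 0.59 (limma unadjusted p = 0.000903), and the vehicle signal was at least 5.16-fold higher. A_70_P040326 read 1.71, 1.1, 1.73 and 0.79 with ketamine, against 0.40, -0.52 and -0.01 with vehicle. It was bright in both groups without overlap, and rose by 1.37 ± 0.53 (limma unadjusted p = 0.0214) or 2.59-fold. That call was lost on either slide, at 1.46 and 1.27, and without ketamine array 1, ketamine array 3 or vehicle array 2 (unadjusted p = 0.0509, 0.0518 and 0.085 in limma). Dimmer probes, both near background, changed by -1.53 ± 0.65 (A_70_P045701, unadjusted p = 0.035) and by 1.31 ± 0.48 (A_70_P053471, unadjusted p = 0.016). The first call was lost under quantile normalization (unadjusted p = 0.0756) and on either slide. It was also lost when any array but ketamine array 2 or vehicle array 3 was left out. The second call was lost on slide 2, at 1.51. Under normexp with quantile normalization both were lost, at -0.08 and 0.08 (limma unadjusted p = 0.54 and 0.375).

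Large differences in genes of the placenta came from 2 of the 4 ketamine arrays. CSH1, placental lactogen, read -2.97 and -3.30 on ketamine arrays 1 and 2, but -9.20 and -8.97 on ketamine arrays 3 and 4, against -9.01, -8.46 and -8.73 with vehicle. PAG7 read -2.13, -1.34, -6.97 and -6.94 with ketamine, against -7.71, -6.90 and -8.61 with vehicle. PAG11 read -2.53, -2.08, -5.40 and -5.30 with ketamine, against -5.50, -5.61 and -5.33 with vehicle. In each case ketamine arrays 1 and 2 stood far above all others and ketamine arrays 3 and 4 lay near the vehicle arrays. Both high arrays were hybridised on slide 1, as were vehicle arrays 1 and 2, which were low. Of the hypoxic arrays, hypoxia ketamine array 2, also on slide 1, read -6.18 for CSH1, -4.40 for PAG7 and -4.21 for PAG11.

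Of 24 placental and trophoblast genes listed, 14 had a probe and 9 were measured. PAG7 and PAG11 rose, by 3.39 ± 1.27 and 1.65 ± 0.72 (limma unadjusted p = 0.0185 and 0.039), and PAG10, which the list did not hold, rose by 2.11 ± 0.79 (unadjusted p = 0.0187). PAG7 was well above background on 2 of 4 ketamine and 0 of 3 vehicle arrays. Its ketamine mean was 5.85-fold above vehicle, with vehicle set no lower than the detection limit. That mean joins high readings with readings not well above background, so the fold is not a bound. CSH1 differed by 2.62 ± 1.33 (limma unadjusted p = 0.0706), PAG3 by 2.55 ± 1.20 (unadjusted p = 0.0523), PAG9 by 2.43 ± 1.19 (unadjusted p = 0.0621) and PAG6 by 1.85 ± 0.97 (unadjusted p = 0.0799). A second PAG6 probe differed by 3.27 ± 1.23 (limma unadjusted p = 0.0195), while PAG8, PAG5 and the transcription factor HAND1, which was well above background on all 7 normoxic arrays, differed by 0.77, -0.84 and 0.23 without passing. A second, untested PAG7 probe read -6.70, -5.83, -9.32 and -9.12 with ketamine, against -9.08, -9.38 and -4.59 with vehicle, so that vehicle array 3 was its highest reading.

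The 9 genes had a median difference of 1.85, beside -0.02 over all probes tested. Between 3 and 10 of the probed markers were well above background on a ketamine array and 3 to 5 on a vehicle array, and their summed signal was 0.10 to 1.28 times the 75th percentile with ketamine and 0.10 to 0.11 times with vehicle. Without ketamine arrays 1 and 2 the differences were 0.79 for PAG7, 0.45 for PAG10, 0.12 for PAG11 and -0.36 for CSH1, and none passed. Within slide 2, which held neither high array and only 1 vehicle array, PAG11 differed by -0.027, PAG10 by 0.71 and PAG7 by 1.65. Within slide 1 they differed by 3.25, 3.65 and 5.57. Of the 7 arrays, PAG7 was well above background only on ketamine arrays 1 and 2. Its differences without them and within slide 2 are between readings not well above background, and no level is read from them. Each of the PAG7, PAG10 and PAG11 calls was also lost when ketamine array 1, ketamine array 2 or vehicle array 3 was left out, that of PAG11 without vehicle array 1 or 2 as well, and all 3 were lost in the fit of the 7 normoxic arrays alone.

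Leaving out ketamine arrays 1 and 2 also bears on the rest. It left CHRD, PDGFB, SLC25A20, SIRT4, PDIA5 and BARX2 past the threshold. TF, CFTR, CDKN1B, MMP2, SHMT2, TFAP2A, CAPN1, COX15, GATD3, TNNC2, PRKAR1A, TNFRSF11B, HEXA and SLC66A2 no longer passed, with 2 arrays left in the ketamine group. Several of these differences stayed close to their size over all arrays: MMP2 gave -0.45, CAPN1 -0.40, TFAP2A -0.37, CDKN1B -0.50, TF 0.52, CFTR 0.62 and HEXA 0.41. The others were 0.35 for SHMT2, 0.26 for COX15 and GATD3, 0.31 for TNNC2, 0.19 for PRKAR1A, 0.39 for SLC66A2 and -0.81 for TNFRSF11B (limma unadjusted p = 0.136). No sign of a difference turned for any of these genes. Whether placental RNA had a part in the differences outside the PAG family was not tested.

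**Figure D2:**
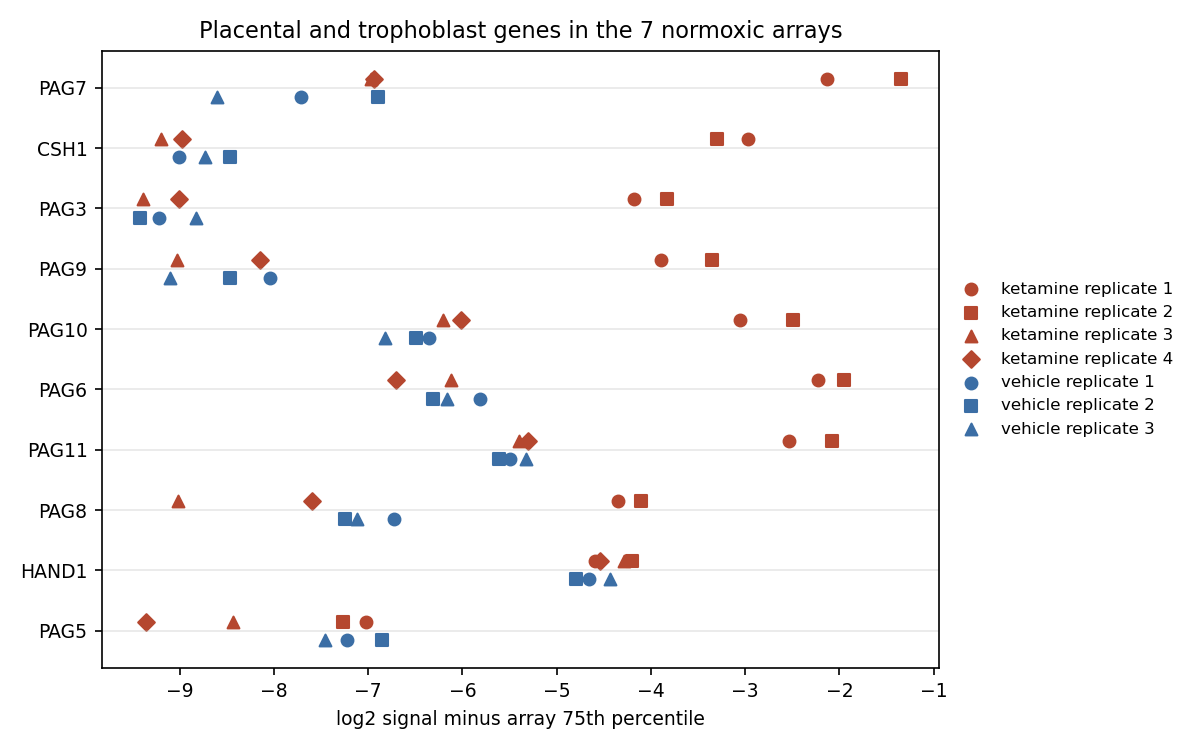
Log2 signal relative to the array's 75th percentile (horizontal axis) for placental and trophoblast genes on the 7 normoxic arrays; red symbols are normoxia ketamine, drawn above blue normoxia vehicle, and the shape gives the replicate. Ketamine arrays 1 and 2 stand apart from the other normoxic arrays, for CSH1 at -2.97 and -3.30, beside -9.20 to -8.46 on the other 5.

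Among glutamate receptors, the class that ketamine acts on, no gene passed the threshold. GRIN1, the obligatory subunit of the NMDA receptor, had 3 probes, and these were well above background in only 1 reading over all 15 arrays, on a vehicle array, so its level could not be tested. Of 27 listed receptor genes 14 had a probe and 8 were measured: 0 passed in limma, 6 were higher and 2 lower with ketamine, and their median difference was 0.13. GRINA, a glutamate receptor-associated membrane protein, was the brightest, at 2.88 to 3.08 with ketamine and 2.74 to 2.82 with vehicle. These did not overlap, but the difference was only 0.16 ± 0.21 (limma unadjusted p = 0.463).

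Of the AMPA receptor subunits, GRIA4 differed by -0.48 ± 0.28 (limma unadjusted p = 0.111), GRIA3 by 0.12 ± 0.15 and GRIA1 by 0.24 ± 0.42, with a 95% interval of -0.66 to 1.14. A second, dimmer GRIA4 probe read -7.33, -7.46, -8.47 and -8.24 with ketamine, none well above background, against -6.65, -6.81 and -6.73 with vehicle. Its groups did not overlap, its difference was -1.15 ± 0.58 (limma unadjusted p = 0.0708), and the vehicle signal was at least 1.25-fold higher. Of the metabotropic receptors, GRM4 differed by 0.13 ± 0.20, GRM6 by 0.05 ± 0.19 and GRM5 by -0.24 ± 0.30. A p that misses the threshold does not show equal levels. Among other receptors, transporters and channels that ketamine is reported to bind, 6 were measured and 0 passed, with a median of -0.14; of 6 xenobiotic-metabolism genes 0 passed.

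Interferon-stimulated genes, the antiviral effectors induced by type I interferon, were lower on ketamine arrays, but the spread of these genes was too wide for a call. ISG15 read 0.93, 0.48, -0.01 and 1.02 with ketamine, against 4.18, 2.56 and 1.43 with vehicle. MX1, an antiviral GTPase, read 0.40, -0.59, -0.27 and 0.21 with ketamine, against 3.04, 1.34 and 0.70 with vehicle. In both genes all ketamine arrays lay below all vehicle arrays, and vehicle array 1 was the highest. The differences were -2.12 ± 1.53 for ISG15 (limma unadjusted p = 0.189) and -1.75 ± 1.43 for MX1 (unadjusted p = 0.241).

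All 6 measured interferon genes were lower with ketamine, with a median of -1.35, and 4 of 6 (ISG15, MX1, MX2 and RTP4) did not overlap, beside 4.6% of all probes, but 0 passed. These 4 ranked the vehicle arrays in the same order, array 1 highest and array 3 lowest, so they are not independent readings. The fit shares 1 spread over all 4 groups: the SD of ISG15 was 0.48 with ketamine and 1.38 with vehicle in normoxia, but 2.04 with ketamine and 3.49 with vehicle in hypoxia. Fitted on the 7 normoxic arrays alone, where 3.72% of all probes fell, 5 of the 6 passed in limma. The 4 without overlap were among them, with unadjusted p = 0.00782 for ISG15, 0.0086 for RTP4, 0.011 for MX1 and 0.0174 for MX2, while IRF1 had an unadjusted p = 0.361. Their adjusted p in that fit was 0.837 at the lowest. Summed over the list, the signal was 3.91 to 6.68 times the 75th percentile with ketamine and 8.15 to 38.1 times with vehicle.

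**Figure D3:**
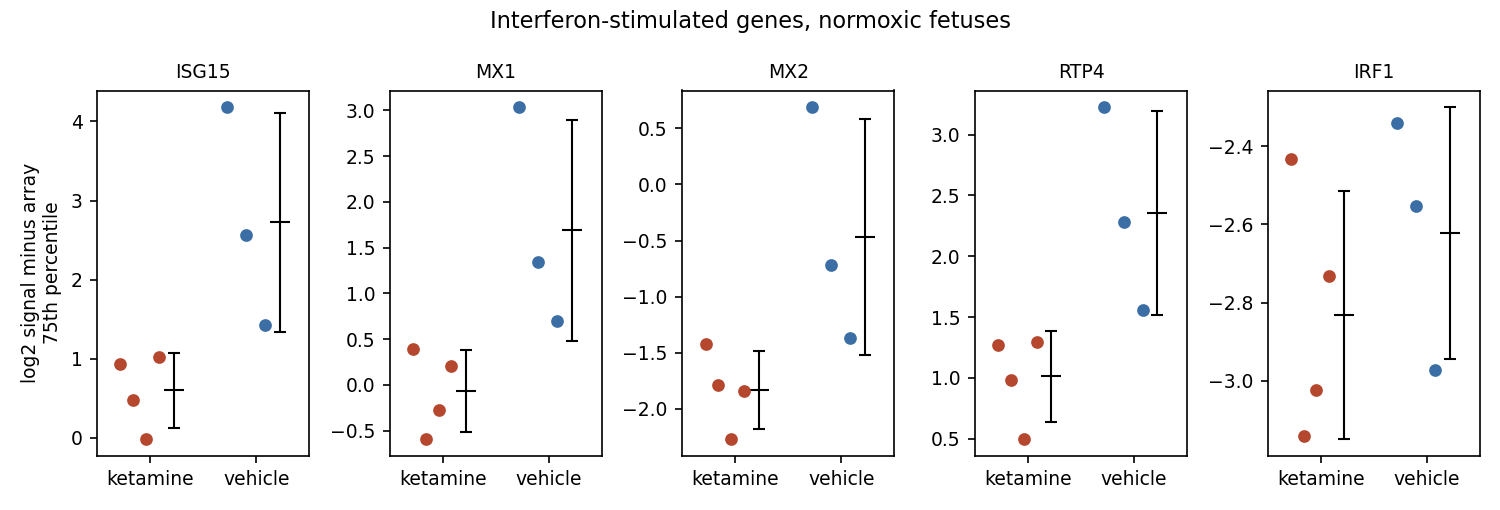
Log2 signal relative to the array's 75th percentile (vertical axis) for 5 interferon-stimulated genes on the normoxic arrays, ketamine left of vehicle; points are arrays and bars the mean ± SD. The ISG15 points lie between -0.01 and 1.02 with ketamine and between 1.43 and 4.18 with vehicle.

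In the growth factor lists most members were lower with ketamine, with 1 call each. Of 28 measured TGF-beta and BMP genes, antagonists included, CHRD fell, 22 were lower (20 under quantile normalization) and the median was -0.17. TGFB1 itself differed by -0.21 ± 0.23 and the BMP antagonist NOG by -0.20 ± 0.21. Of 21 genes of the platelet-derived, vascular endothelial and fibroblast growth factor families, PDGFB fell, 18 were lower (17 under quantile normalization) and the median was -0.23. Over all named genes 48.6% were lower, and the median was 0.01. VEGFA, the main endothelial growth factor, read 0.83, 0.67, 1.13 and 0.60 with ketamine, against 1.25, 1.18 and 1.28 with vehicle. The ketamine arrays were all below, by a small margin for array 3, and the difference was -0.43 ± 0.30 (limma unadjusted p = 0.176).

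In fatty acid oxidation most members were higher by small amounts. Of 13 measured genes of fatty acid oxidation and mitochondrial carriers, SLC25A20 rose, 11 were higher and the median was 0.09. CPT1A, the enzyme that makes the acylcarnitines which SLC25A20 carries, was one of the 2 that were lower, at -0.25 ± 0.20 (limma unadjusted p = 0.229). The adenine nucleotide carriers SLC25A4, SLC25A5 and SLC25A6 differed by 0.25, 0.42 and 0.16 and did not pass. Of 4 oxidative phosphorylation genes 0 passed, and of 17 cell cycle and apoptosis genes CDKN1B fell while 12 were higher, with a median of 0.10.

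Inflammatory genes gave no call in normoxia: 0 of 14 cytokines and chemokines passed, with a median of -0.05, and 0 of 11 genes of NF-kB and the Toll-like receptors, with a median of 0.04. Some of the 14 cytokines were not well above background on any normoxic array and were tested only through hypoxic arrays. For those, no normoxic level is read. Under hypoxia in the same fit, 5 of those 14 cytokines fell with ketamine, with a median of -0.96. Of 8 immediate early genes, 0 passed in normoxia, with a median of -0.11, and 7 fell in hypoxia, with a median of -1.24. FOS differed by -0.84 ± 1.01 and MYC by -0.46 ± 0.61 in normoxia (limma unadjusted p = 0.417 and 0.46).

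Genes of kidney function gave no call either: 0 of 18 tubular transport and nephron genes (median 0.03), 0 of 5 tubular injury markers (median 0.12), 0 of 6 renin-angiotensin genes (median -0.12) and 0 of 17 genes of vascular tone (median -0.10). Hypoxia-inducible factor targets (0 of 10), insulin-like growth factor genes (0 of 12) and corticosteroid and circadian genes (0 of 13) gave no call. Of 14 matrix and fibroblast genes MMP2 fell.

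Leukocyte markers gave no call. The 4 neutrophil genes were all lower, with a median of -1.06 and summed signals of 0.69 to 2.24 with ketamine and 1.33 to 5.64 with vehicle, 0 of them passing. Of 8 monocyte and macrophage markers and 8 T and natural killer cell markers, 0 passed, with medians of -0.04 and -0.20. The monocyte and macrophage list includes a marker that was not well above background on any normoxic array. The 1 measured adrenal gene, CYP17A1, differed by -0.15 ± 0.15 (limma unadjusted p = 0.334).

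**Figure D4:**
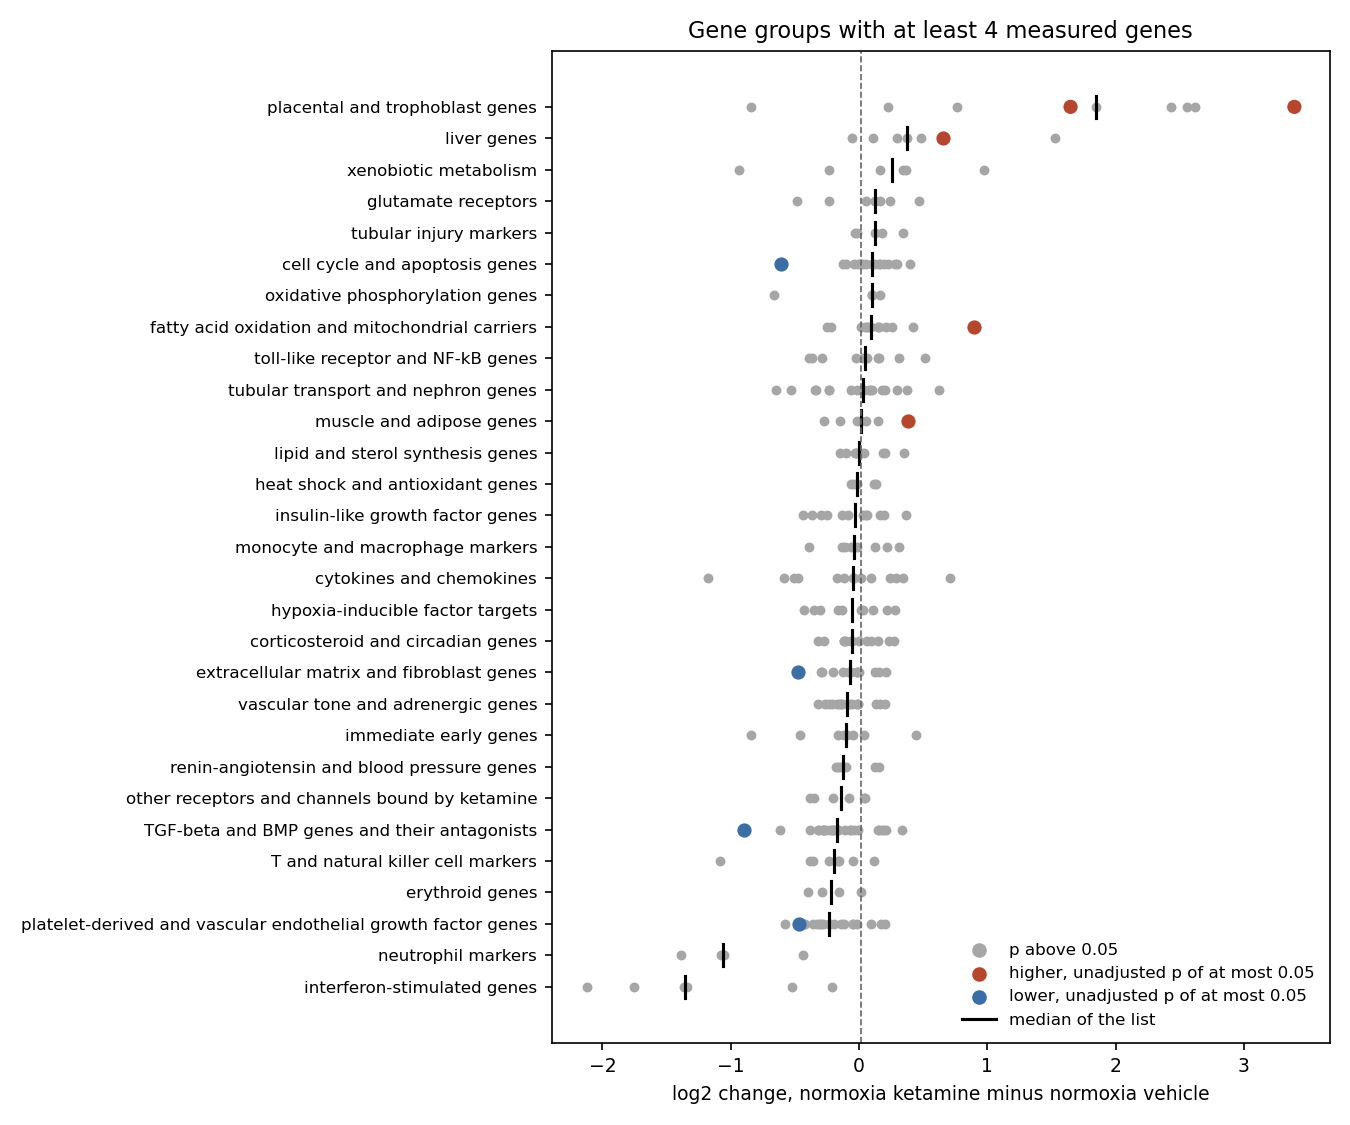
Log2 difference, normoxia ketamine minus normoxia vehicle (horizontal axis), for the measured members of each list with at least 4 of them; points are genes, red or blue where limma's unadjusted p was at most 0.05, and black bars are list medians. The placental list has its median at 1.85, the neutrophil list at -1.06 and the interferon list at -1.35, and the other medians lie nearer to the dashed line, the median of all named genes.

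Most probes that passed in normoxia did not pass for ketamine against vehicle under hypoxia, a comparison that shares no arrays with it. Of the 350 probes that passed in normoxia, 45 also passed in hypoxia, and 33 of the 45 had the same sign. This is 12.9% of the normoxia list, beside 6.07% of all probes tested that passed in hypoxia. It is 5.73% of the hypoxia list, beside 2.71% of all probes tested that passed in normoxia. Both comparisons use the same estimate of spread for a probe, so their calls are not independent. The sign was the same for 57.4% of the normoxia list and for 52.1% of all probes tested. Over all probes the correlation between the 2 differences was 0.02, as a description across probes.

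Of the 24 named genes, 12 kept their sign in hypoxia and 1 passed there, SLC66A2, which rose by 0.50 in normoxia and fell by 0.45 in hypoxia (limma unadjusted p = 0.0389). The difference between the responses was tested as the interaction, which 407 of all probes passed unadjusted (3.15%) and 0 after adjustment in limma. Of the 814 named genes 31 passed it (3.81%), as did 8 of the 24 and 100 of the 350 probes called in normoxia. The normoxia difference is part of the interaction, so a higher share among genes called in normoxia follows from how they were chosen. For CHRD the difference in hypoxia was 0.03 ± 0.22, and the interaction was -0.93 ± 0.32 (limma unadjusted p = 0.0124). For SLC25A20 the hypoxia difference was 0.19 ± 0.27 and the interaction did not pass (0.71, unadjusted p = 0.101), and for PDGFB hypoxia gave -0.26 ± 0.13 (unadjusted p = 0.0682) with an interaction of -0.20 (unadjusted p = 0.314). Of these 3 genes, CHRD alone passed the interaction. SLC66A2 passed it at 0.95 (unadjusted p = 0.00598).

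The probe A_70_P024026 had the lowest interaction p of the items described here. It was lower with ketamine in normoxia and higher with ketamine in hypoxia, by 1.42 (limma unadjusted p = 0.0115), an interaction of -3.95 (unadjusted p = 0.00019). On the hypoxia ketamine arrays it read -4.59, -4.94, -4.42 and -4.74, and on the hypoxia vehicle arrays -6.81, -7.55, -4.75 and -5.24. The normoxia ketamine arrays and 2 of the hypoxia vehicle arrays were low, and the others high.

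**Figure D5:**
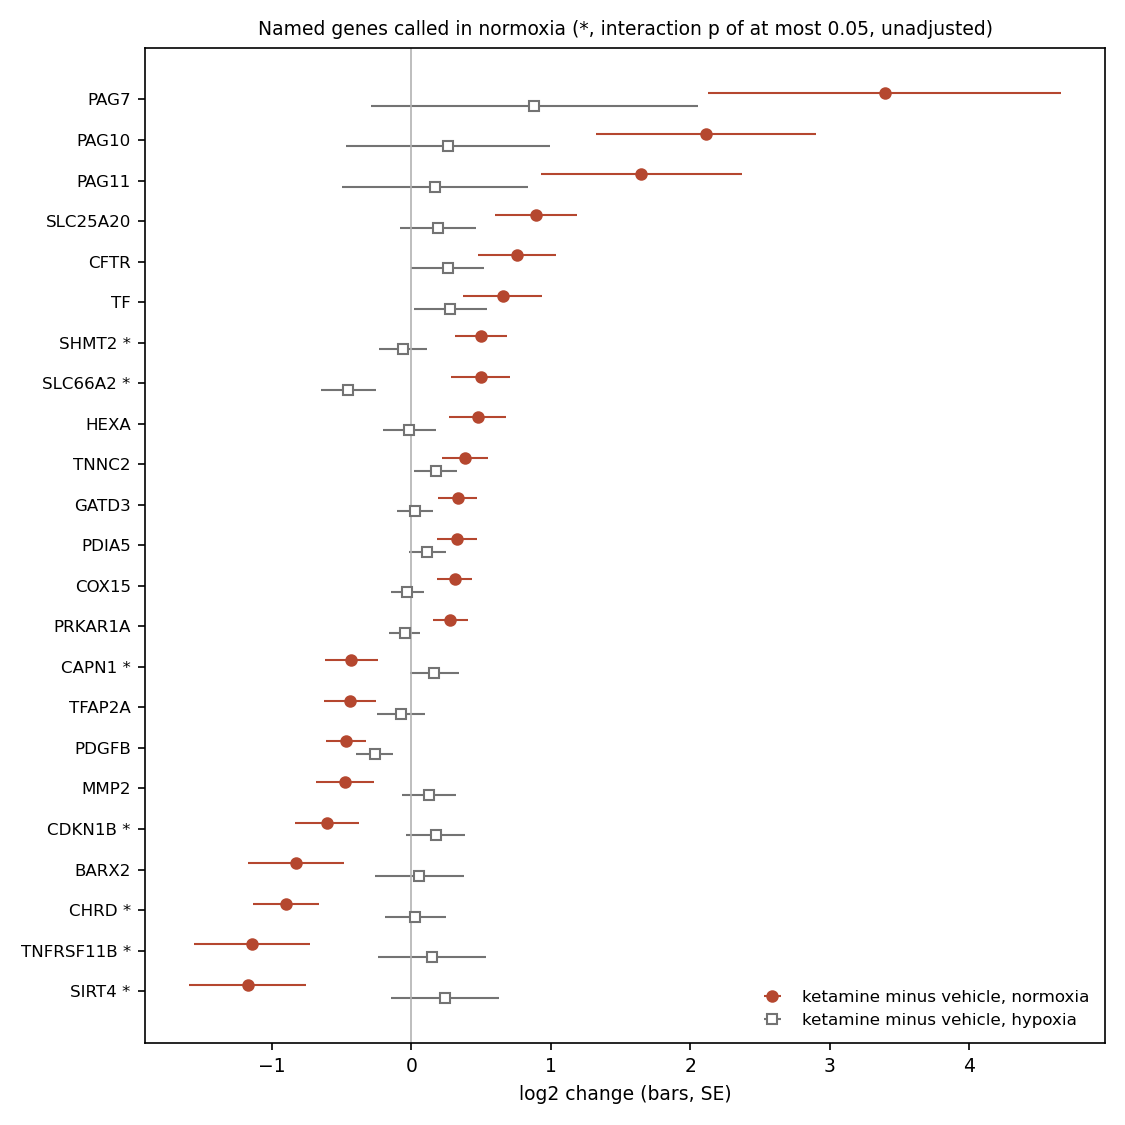
Log2 difference, ketamine minus vehicle (horizontal axis), for 23 named genes that passed in normoxia; red circles are normoxia, open squares hypoxia, bars the standard error, and an asterisk marks an interaction with unadjusted p of at most 0.05. For CHRD the normoxia value is -0.90 and the hypoxia value 0.03, and 11 of the 23 genes drawn have the same sign in both.

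Overlapping probes gave a further check on single readings. Over 238 pairs of probes that share at least 50 bases, the normoxia differences had the same sign in 202 (84.9%), and the median gap between the 2 values was 0.06 log2 units. Of the 6 pairs with at least 1 probe that passed, both passed in 1 pair, SHMT2, and in the other 5 the second probe had the same sign without passing.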

How the data were processed

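Kidney cortex RNA from 15 fetal sheep was hybridised to 15 one-colour ovine arrays, and the 4 normoxia ketamine and 3 normoxia vehicle arrays were compared. The deposited scanner files hold intensity per spot, background-subtracted by Agilent Feature Extraction 10.1.1.1 per the file headers. The authors used limma per the labels, with a threshold of P of at most 0.05. A deposited value table of the same arrays holds log2 values whose centring and normalization no source used here gives; its column medians lay between 8.98 and 8.99. It covers 11705 probes, and 3 of its 15 columns tracked their own array best while 15 of 15 tracked an array of their own group, so it served only as an alternative.

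The processed signal was put on the log2 scale after division by each array's 75th percentile. Control spots and spots called outliers by the scanner software were left out (83 tested probes lost at least 1 array this way, and the fit used the arrays that were left), and 12927 of 15008 probes that were well above background on at least 3 arrays were tested. The fit used limma 3.58.1 in R 4.3.3 with a mean for each of the 4 groups over all 15 arrays (residual df 11, prior df 2.4), and adjusted p-values are Benjamini-Hochberg over all tested probes. Each array is a separate fetus per the labels, so n counts fetuses. Array genes were named through the RefSeq table of assembly ARS-UI_Ramb_v3.0, the array's own names and a hand-made table of older symbols: 1522 probes (10.1%) had a name, giving 929 names and 814 tested genes, each read by its probe with the highest mean signal. No coordinates are given, because the files hold none for the probes. Where every array of a group was not well above background, the fold is a bound, the bright group's mean against the higher of the detection limit and the dim reading per array. Where the brighter group also held arrays not well above background, that fold is a ratio of means and not a bound.

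The fit was tested on simulated data of the same size. The members and gene lists were chosen with earlier results of these data known, the lists in part from an earlier reading of the same arrays. Genes were named in the text by this rule: CHRD, PDGFB and SLC25A20, any probe with an adjusted call, up to 12 genes in each direction that had the largest unadjusted calls without overlap between groups, up to 4 genes per list past it or at most 2 otherwise, the measured glutamate receptors and placental genes, and 2 unnamed probes in each direction. Genes described for their role are given as values, and some genes are not reported here. Alternatives were other scaling and background correction, other filters, slide or replicate number as a block, slides apart, the deposited table, the normoxic arrays alone, and each array left out.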

Additional observations from a re-analysis of the deposited data

Results flagged for a closer look

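In limma, ketamine's log2 difference in normoxia minus that in hypoxia passed the unadjusted threshold for 13 of the genes and probes named here, with 0 after adjustment over all probes. It was -3.95 for the unnamed probe A_70_P024026 (unadjusted p = 0.00019), -1.41 for SIRT4, -1.29 for TNFRSF11B, -1.06 for the water channel AQP5, -0.93 for CHRD, -0.91 for GRIA4, -0.78 for CDKN1B and -0.60 for CAPN1. It was 1.81 for CYP4F21, a fatty acid hydroxylase of the cytochrome P450 family, 1.59 for A_70_P053471, 1.46 for the endotoxin receptor TLR4, 0.95 for SLC66A2 (unadjusted p = 0.00598) and 0.56 for SHMT2. CYP4F21 read -4.95, -2.46, -3.69 and -4.87 on the normoxia ketamine arrays, against -4.88, -4.90 and -5.12 on the normoxia vehicle arrays, so that ketamine arrays 2 and 3 were high. Of all 12927 probes, 3.15% passed this interaction. Many of the items named here were chosen by their normoxia difference, which is part of the interaction. A higher share among them follows from that choice.

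A single normoxia ketamine array lay far from the other 3 for 7 of 83 groups checked. The genes and probes checked were chosen in part by their values on these arrays, so no chance share is set beside this count. The readings were the highest for COX5A (-5.23), AKT1 (0.01) and PDIA5 (1.13), and the lowest for AQP5 (-7.09), AGTR1 (1.63), SQLE (2.01) and SLC66A2 (-2.44). For PDIA5 the far array was ketamine array 3.

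Among probes too dim to be tested, 3 with a name were well above background on 2 normoxia ketamine arrays and no normoxia vehicle array. UCP1, the uncoupling protein of brown fat, read -7.46, -3.92, -9.07 and -3.87 with ketamine, against -7.44, -9.20 and -8.98 with vehicle, and averaged -3.90 on ketamine arrays 2 and 4, where it was well above background, and was below it on all the other arrays of the series. The mean of all ketamine arrays was 1.92-fold higher than vehicle, with vehicle set no lower than the detection limit. It includes ketamine arrays 1 and 3, which were not well above background, so the fold is not a bound. A second PAG3 probe averaged -5.65 and PAG4 averaged -5.58 on ketamine arrays 1 and 2, the arrays with high placental lactogen.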

How the results depend on the processing

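With 4 and 3 arrays, the comparison resolves differences near 1 log2 unit better than small ones, and no adjusted call was made in limma on all 15 arrays. The count of probes past the unadjusted threshold was 350, and 211 to 539 with each normoxic array left out, 211 without vehicle array 2 and 539 without vehicle array 3. It was 673 with the 7 normoxic arrays alone. After adjustment the count was 0, but 1 without a filter on dim probes (A_70_P011831, well above background on 1 of the 7 arrays), 1 without the 2 ketamine arrays that showed placental lactogen (A_70_P047841) and 2 with the 7 normoxic arrays alone. Groups without overlap numbered 920, 1468 to 2399 with an array left out and 2817 without those 2 ketamine arrays; a smaller group overlaps less by construction. In hypoxia the count of 785 was 276 within slide 1 and 432 with the 8 hypoxic arrays alone, with 2 adjusted calls within slide 2. The interaction count of 407 was 229 within slide 1 and 247 to 517 with a normoxic array left out. The causes were not tested. PAG11 reversed within slide 2, at -0.027.

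Of 27 calls described (23 named genes and 4 unnamed probes), 24 held and 3 were lost under quantile normalization, 21 and 6 under normexp with quantile normalization, 21 and 6 with the 7 normoxic arrays, 27 and 0 with slide as a block, 11 and 16 within slide 1, and 5 and 21 within slide 2. Whether replicate numbers pair the fetuses cannot be told from the arrays. The pair correlations given next are not of whole array signals. Those were 0.981 to 0.988 among normoxia ketamine arrays and 0.987 to 0.988 among normoxia vehicle arrays. Same-numbered ketamine and vehicle arrays correlated at 0.333, 0.210 and 0.0621, and different numbers at -0.200 to 0.218. Ketamine and vehicle arrays of the same slide correlated at -0.130 to 0.333, and same-numbered arrays shared a slide. With replicate number as a block 424 probes passed, 55.7% of them higher, and 23 of the 27 calls held.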

Other observations

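Genes of other processes gave few differences. Of 10 measured lipid and sterol synthesis genes, 5 were higher and 5 lower with ketamine, and SQLE, squalene epoxidase of cholesterol synthesis, differed by 0.35 ± 0.41. Of 5 heat shock and antioxidant genes 0 passed, with SOD2, the mitochondrial superoxide dismutase, at 0.13 ± 0.55 and HSPA5, a chaperone of the endoplasmic reticulum, at 0.12 ± 0.34. Of the erythroid genes, AHSP, the haemoglobin-stabilising protein, varied widely within both groups, at -2.17, -5.10, -3.87 and -2.69 with ketamine, against -1.97, -4.21 and -3.32 with vehicle, and the groups overlapped. Of 12 insulin-like growth factor genes, IGF2R, the receptor that clears IGF2, differed by -0.44 ± 0.23 (limma unadjusted p = 0.075) and IGFBP6 by 0.37 ± 0.25 (unadjusted p = 0.166).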
